A study of Caenorhabditis elegans with 20 samples.

Results

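The genes described are the transthyretin-like *ttr* genes of *Caenorhabditis elegans*, taken as every gene whose symbol in the array annotation starts with ttr-. There were 40 such genes with a probe set of their own, among 17118 genes with 1 symbol on the array. *ttr-24* had 2 probe sets and was represented by the one with the higher mean over the 20 arrays. A further 6 *ttr* genes shared 3 probe sets in pairs and are given once, as pairs. The table of current RefSeq genes lists 59 *ttr* symbols, and the other 13 were not analysed here.

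Transthyretin carries thyroid hormone and retinol-binding protein in vertebrate blood. The transthyretin-like proteins of nematodes resemble it distantly, form a large family, and mostly carry a signal peptide that sends them out of the cell. The best understood member in *C. elegans* is *ttr-52*, whose secreted protein bridges phosphatidylserine on dying cells and the engulfment receptor CED-1 on the cells that remove them. Most other members have no established role, and none is given for them here. Insulin-like signalling sets the frame of the study. Its receptor is the product of *daf-2*, and active signalling keeps DAF-16, a FOXO transcription factor, in the cytoplasm.

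Whole-animal RNA was hybridised to Affymetrix arrays, with 4 genotypes in 5 biological replicates each. In both double mutants the deletion *daf-16*(mgdf50) was joined with a *daf-2* allele, either e1370 or m577, and these are called here e1370 and m577 animals without *daf-16*. The corresponding single mutants, *daf-2*(e1370) and *daf-2*(m577), are called e1370 and m577 animals with *daf-16*. All 4 strains thus had a mutated *daf-2*, and no animal wild type for it was included. All of them shared *glp-4*(bn2), an allele that restricts the germ line at the higher temperature. Larvae hatched at 20 °C, grew at 15 °C and were moved to 25 °C at the L4 stage, and sterile adults 1 day old were collected the next day, with 8 plates making up a replicate.

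Levels are log2 values, so a difference of 1 is a 2-fold change, and differences are those without *daf-16* minus those with it, with their standard error (SE, 5 arrays per genotype). Array medians lay between 6.41 and 6.57. The 15 Bacillus control probe sets, which match no worm gene, had values between 4.21 and 6.29, called here the control range. Their median value was 4.57, and the highest mean of any of these probe sets was 5.19. The upper end of the range is thus a loose bound, and a weakly expressed gene can lie inside it. Among published *daf-16* targets, 8 of 8 reported lower without *daf-16* were lower here and 3 of 3 reported higher were higher, by limma at an adjusted p under 0.05 over both alleles. Whether those reports are independent of these data was not established, so the match is a weak check of the labels. Of the 4 *daf-16* probe sets, 2 fell (differences of -0.76 and -0.69, limma adjusted p = 0.0174 and 0.0175), the second with all 4 genotype means inside the control range, and neither passed in m577 alone (adjusted p = 0.391 and 0.0917). The other 2 did not pass (differences of -0.07 and -0.38), and whether any of them lies in the deleted stretch was not looked up. The labels call the animals sterile, yet sperm markers (28 probe sets, mean level per array) ranged from 8.26 to 12.14 and oocyte and germ cell markers (20 probe sets) from 8.29 to 11.58, above the control range on all 20 arrays. The array of e1370 replicate 2 without *daf-16* stood apart in the *ttr* genes and over all probe sets. Its mean correlation with the other arrays of its genotype was 0.84, the lowest of the 20 arrays, against 0.89 to 0.98 on the others. Counts that rest on this array are also given without it.

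Loss of *daf-16* was accompanied by lower levels of a minority of the *ttr* genes, and in the main fit none passed as higher. Over both *daf-2* alleles, 7 of the 40 fell at a limma adjusted p under 0.05, which are *ttr-26*, *ttr-23*, *ttr-5*, *ttr-25*, *ttr-44*, *ttr-48* and *ttr-46*, and 33 did not pass. Of all 22548 probe sets tested, 6.32% passed in this comparison, 3.63% lower and 2.69% higher. The median difference of the 40 genes was -0.16, against -0.02 for all probe sets. Of the 40 differences, 27 were below 0 and 13 above it. At an unadjusted p under 0.05, limma had 1 gene higher and 10 lower, where 15.6% of all probe sets were under it. The arrays hold RNA of whole animals, so fewer cells of a type and less RNA per cell cannot be told apart. Without e1370 replicate 2 of the *daf-16* mutants the count was 10, *ttr-29*, *ttr-39* and *ttr-47* being added, and 7.81% of all probe sets passed. *ttr-29* also passed without e1370 replicate 3 or 5 carrying *daf-16* (adjusted p = 0.0355 and 0.0254), and *ttr-37* passed, as higher, without e1370 replicate 1 carrying it (adjusted p = 0.0327).

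*ttr-26* had the largest difference of the family. In e1370 animals without *daf-16* its levels were 5.52, 7.71, 5.51, 5.97 and 5.90 in replicates 1 to 5, against 11.37, 11.54, 10.74, 10.57 and 10.31 in e1370 animals with it. In m577 animals without *daf-16* they were 6.54, 5.87, 6.24, 7.28 and 6.40, against 9.83, 9.90, 8.52, 9.60 and 9.28 with it. No array without *daf-16* reached any array with it, in either allele, and replicate 2 was the highest of the e1370 arrays without *daf-16*. The mean difference was -3.87 ± 0.28 (limma adjusted p = 3.23e-08). On 4 of 5 arrays in e1370 and 2 of 5 in m577 without *daf-16*, *ttr-26* lay inside the control range. The level there may be close to that of probe sets with no target, and the measured difference may then understate the fall.

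*ttr-23* came next. Its levels in e1370 animals without *daf-16* were 7.02, 9.88, 6.73, 7.87 and 7.34, against 11.06, 11.47, 11.09, 10.95 and 10.07 with it. The m577 levels without *daf-16* were 8.28, 7.32, 7.03, 7.20 and 7.11, against 9.66, 10.04, 9.49, 9.19 and 9.64 with it. The groups did not overlap, although e1370 replicate 2 without *daf-16* (9.88) lay just under the lowest e1370 array with it (10.07). The difference was -2.69 ± 0.32, or 6.45-fold lower (limma adjusted p = 1.42e-05).

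*ttr-5* and *ttr-44* also separated on every array. *ttr-5* measured 10.05, 11.53, 9.53, 10.40 and 9.81 in e1370 animals without *daf-16*, against 12.65, 12.75, 12.49, 12.38 and 12.51 with it. Its levels in m577 animals without *daf-16* were 11.27, 9.97, 10.48, 10.88 and 10.54, against 12.35, 12.08, 11.83, 11.81 and 11.67 with it. All arrays with *daf-16* were thus higher than all arrays without it, and those of e1370 with *daf-16* lay closest together (SD 0.14). The difference was -1.80 ± 0.21 (3.49-fold lower, limma adjusted p = 1.18e-05).

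*ttr-44* measured 10.80, 11.28, 10.04, 10.90 and 9.62 in e1370 animals without *daf-16*, against 12.50, 11.996, 12.13, 11.76 and 11.82 with it. Without *daf-16*, m577 animals had levels of 10.83, 10.80, 10.97, 10.88 and 10.81, against 11.78, 12.24, 11.68, 11.85 and 11.80 with it. The m577 arrays without *daf-16* spread little (SD 0.07), while those of e1370 without *daf-16* spread by an SD of 0.68. The difference was -1.26 ± 0.17 (2.40-fold lower, limma adjusted p = 5.87e-05).

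*ttr-25*, *ttr-48* and *ttr-46* also fell, but some of their arrays overlapped. *ttr-25* measured 9.69, 11.57, 9.17, 9.58 and 9.48 in e1370 animals without *daf-16*, against 12.22, 12.45, 11.56, 11.17 and 11.60 with it. The m577 levels without *daf-16* were 10.22, 10.02, 10.01, 10.23 and 10.08, against 11.25, 11.10, 10.22, 10.92 and 10.62 with it. Replicate 2 was the only e1370 array without *daf-16* inside the range of the arrays with it, and in m577 the ranges met at replicate 3 with *daf-16* (10.22). The difference over both alleles was -1.31 ± 0.25 (limma adjusted p = 0.00229).

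*ttr-48* measured 10.57, 11.88, 10.38, 11.21 and 10.70 in e1370 animals without *daf-16*, against 12.41, 12.24, 11.98, 11.81 and 11.71 with it. Without *daf-16*, m577 animals had levels of 11.54, 10.86, 10.95, 11.24 and 11.31, against 11.84, 11.68, 11.89, 11.50 and 11.37 with it. In each allele 1 array without *daf-16* reached into the range with it. The difference was -0.78 ± 0.16 (limma adjusted p = 0.00537).

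*ttr-46* was bright in every genotype and had the smallest difference that passed. It measured 11.86, 12.60, 11.67, 12.40 and 12.20 in e1370 animals without *daf-16*, against 12.84, 12.49, 12.95, 12.85 and 12.97 with it. The m577 levels without *daf-16* were 12.40, 12.14, 11.97, 12.25 and 12.55, against 12.64, 12.81, 12.94, 12.61 and 12.68 with it. The m577 arrays did not overlap and the e1370 arrays did. The difference was -0.57 ± 0.11 (1.49-fold lower, limma adjusted p = 0.00277). *ttr-46* no longer passed with the 3'-to-5' signal gap of control transcripts as a covariate (adjusted p = 0.065), and neither *ttr-46* nor *ttr-48* passed a test against a 1.2-fold change (adjusted p = 0.155 and 0.0875).

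**Figure D1:**
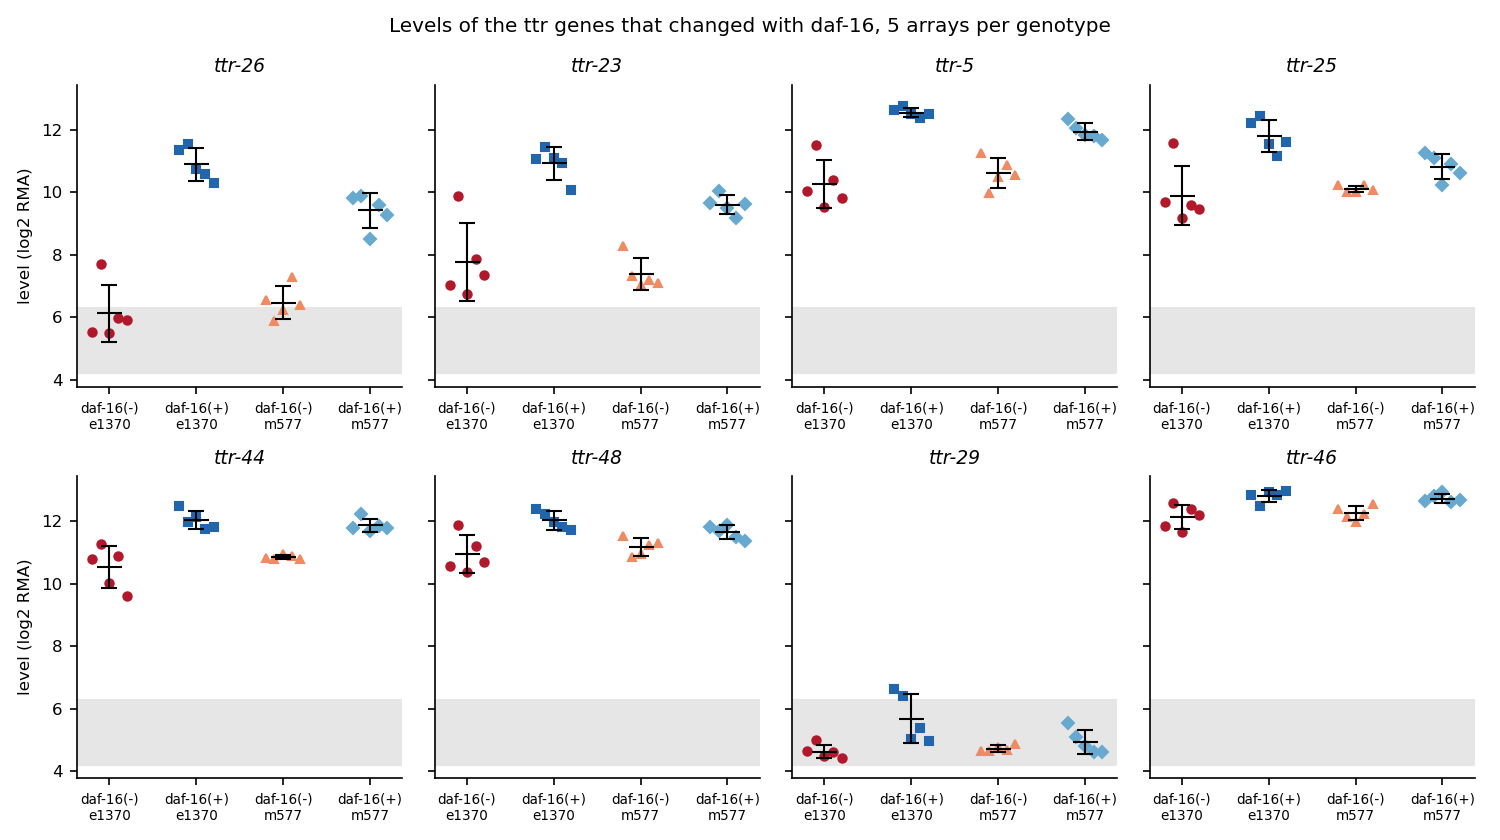
Levels (log2) of the 8 *ttr* genes that passed limma's test of *daf-16* loss over both alleles or in e1370, on each of 5 arrays per genotype, where daf-16(-) stands for daf-16(mgdf50). Bars are the mean ± SD, and the grey band is the control range of 4.21 to 6.29. *ttr-26* lay between 5.51 and 7.71 without *daf-16*, against 8.52 to 11.54 with it, while *ttr-29* was in or near the band throughout.

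*ttr-52*, the engulfment bridging protein, lay inside the control range in every genotype. Its genotype means were 5.15 to 5.32, around the highest mean of a control probe set (5.19). Its levels in e1370 animals without *daf-16* were 4.97, 5.55, 4.99, 5.14 and 5.12, against 5.14, 5.54, 5.74, 5.12 and 4.84 with it. In m577 animals without *daf-16* they were 5.05, 5.07, 5.02, 5.13 and 5.61, against 5.71, 5.28, 5.34, 5.29 and 4.97 with it. All 20 values lay inside the control range and the groups overlapped. The difference of -0.13 ± 0.12 (limma adjusted p = 0.68) therefore does not settle whether *ttr-52* responded.

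The genes that act with *ttr-52* in clearing dying cells, or in exposing phosphatidylserine, gave 3 calls over both alleles. Of 21 measured genes of the engulfment list, *ttr-52* included, 1 was higher and 2 were lower over both alleles, with a median difference of 0.24, where 6.32% of all probe sets passed. The engulfment adaptor *ced-6* was higher by 0.97 ± 0.26 (limma adjusted p = 0.0307). *scrm-1*, a phospholipid scramblase, fell by 0.97 ± 0.19 (adjusted p = 0.00301), and *chat-1*, the chaperone of the phosphatidylserine flippase TAT-1, fell by 0.57 ± 0.16 (adjusted p = 0.0391). The receptor gene *ced-1* had a difference of 0.26 ± 0.17 (adjusted p = 0.536). In e1370 alone 1 gene of the list was lower and 0 higher, against 4.38% of all probe sets in either direction. In m577 0 of 21 passed limma's test, against 1.79%. There 4 were higher and 2 lower at an unadjusted p under 0.05, against 13.1% of all probe sets.

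Transthyretin shares its fold with 5-hydroxyisourate hydrolases, enzymes that act after urate oxidation in purine breakdown. The hydrolase-like genes *R09H10.3* and *ZK697.8* each had a difference of -0.07, and *ZK697.8* lay in the control range. *xdh-1*, encoding xanthine dehydrogenase, which makes urate, was higher without *daf-16* by 1.31 ± 0.26 (limma adjusted p = 0.00341).

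In e1370 animals 8 of the 40 *ttr* genes fell with loss of *daf-16* and none passed as higher. Of all probe sets 2.4% were lower and 1.98% higher (4.38% in either direction). The 8 were the 7 above and *ttr-29*, and the median difference of the 40 genes was -0.33, against 0.00 for all probe sets. At an unadjusted p under 0.05, 0 genes were higher and 13 lower, where 11.3% of all probe sets were under it. *ttr-26* fell by 4.78 ± 0.39 (limma adjusted p = 3.01e-07), a size that background may limit, with 4 of 5 arrays without *daf-16* in the control range. *ttr-23* had a difference of -3.16 ± 0.45 (adjusted p = 0.000168) and *ttr-5* one of -2.29 ± 0.29 (adjusted p = 6e-05). The differences were -1.90 ± 0.35 for *ttr-25*, -1.51 ± 0.24 for *ttr-44*, -1.08 ± 0.23 for *ttr-48* and -0.68 ± 0.16 for *ttr-46*, with adjusted p between 0.000483 and 0.0152. Arrays did not overlap for *ttr-5*, *ttr-23*, *ttr-26* and *ttr-44*, where 2.01% of all probe sets were lower without overlap. Without replicate 2 of the *daf-16* mutants 11 genes passed, *ttr-20*, *ttr-39* and *ttr-47* being added (adjusted p between 0.00271 and 0.0214), and 5.52% of all probe sets passed. *ttr-20* also passed without e1370 replicate 5 carrying *daf-16* (adjusted p = 0.0326).

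*ttr-29* fell by 1.05 ± 0.28 in e1370 (limma adjusted p = 0.0341), at levels close to background. It measured 4.64, 4.99, 4.47, 4.61 and 4.44 in e1370 animals without *daf-16*, against 6.62, 6.42, 5.04, 5.37 and 4.96 with it. Only replicates 1 and 2 with *daf-16* exceeded the control range, and in m577 all 10 values lay inside it (4.63 to 4.88 without *daf-16* and 4.61 to 5.53 with it). Leaving out 1 array ended the call in 6 of 20 cases, which were e1370 replicates 1, 3, 4 and 5 without *daf-16* (adjusted p between 0.0702 and 0.0843) and e1370 replicates 1 and 2 with it (0.0918 and 0.0931). *ttr-46* lost its e1370 call without e1370 replicate 1 of the *daf-16* mutants (adjusted p = 0.0532).

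When only the e1370 arrays were fitted, 4 of these 8 calls remained, those of *ttr-26*, *ttr-23*, *ttr-5* and *ttr-44*. The differences were the same by construction, and the adjusted p-values were 0.0699 for *ttr-25*, 0.106 for *ttr-48*, 0.132 for *ttr-46* and 0.227 for *ttr-29*.

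In m577 animals 4 of the 40 fell with loss of *daf-16*, all of them among the 8, and none passed as higher in the main fit. Of all probe sets 1.2% were lower and 0.594% higher (1.79% in either direction). *ttr-26* fell by 2.96 ± 0.39 (limma adjusted p = 0.000297), with 2 of 5 arrays without *daf-16* in the control range. *ttr-23* differed by -2.22 ± 0.45 (4.65-fold lower, adjusted p = 0.0112), *ttr-5* by -1.32 ± 0.29 (adjusted p = 0.0236) and *ttr-44* by -1.01 ± 0.24 (adjusted p = 0.0328). For *ttr-25*, *ttr-48* and *ttr-46* the m577 differences were -0.71 ± 0.35, -0.47 ± 0.23 and -0.47 ± 0.16 (adjusted p = 0.408, 0.399 and 0.172). The median difference of the 40 genes was 0.01, against -0.03 for all probe sets. At an unadjusted p under 0.05, 2 genes were higher and 5 lower, where 13.1% of all probe sets were under it. With array quality weights 13 genes passed in m577, 9 lower and 4 higher (*ttr-12*, *ttr-27*, *ttr-37* and *ttr-53*), where 29.5% of all probe sets passed. When only the m577 arrays were fitted, *ttr-12* and *ttr-37* also passed, as higher (differences of 1.62 and 1.26, limma adjusted p = 0.0306 and 0.0133).

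A sign of RNA quality and the mean level of the sperm markers both separated the m577 arrays with and without *daf-16*. The 3'-to-5' signal gap of control transcripts (log2) was 1.72 to 2.32 in m577 animals without *daf-16*, against 1.19 to 1.61 with it, without overlap. In e1370 it was 1.29 to 1.55 without *daf-16* and 1.23 to 1.68 with it. With this gap as a covariate, 1 *ttr* gene passed in m577, *ttr-26*, and 0.257% of all probe sets did. *ttr-5*, *ttr-23* and *ttr-44* then had differences of -1.76, -2.54 and -0.998 (limma adjusted p = 0.157, 0.24 and 0.627), close to or larger than those without the covariate. The mean level of the sperm markers was 11.85 to 12.14 in m577 animals without *daf-16*, against 8.26 to 11.64 with it, also without overlap. With *daf-16* only replicate 3 was as low as 8.26, and the next lowest array had 11.27. No single sperm marker passed in m577.

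The m577 calls of *ttr-5* and *ttr-44* were near the threshold. That of *ttr-44* was kept in 11 of 20 fits that each left out 1 array and lost without any one of the 5 m577 arrays lacking *daf-16* or without m577 replicate 1, 2, 4 or 5 carrying it (adjusted p between 0.0522 and 0.0937). The call of *ttr-5* was lost without m577 replicate 2 or 3 lacking *daf-16* or without m577 replicate 1 or 2 carrying it (adjusted p between 0.0609 and 0.0773). The count in m577 was 2 without any one of those last 4 arrays.

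Arrays in m577 did not overlap for *ttr-5*, *ttr-23*, *ttr-26*, *ttr-44* and *ttr-46*, all lower, against 3.38% of all probe sets. Those of *ttr-5*, *ttr-23*, *ttr-26* and *ttr-44* were without overlap in both alleles, where 0.98% of all probe sets were lower in this way. The m577 arrays also did not overlap for 2 genes that were higher without *daf-16* and did not pass limma's test, against 3.28% of all probe sets. *ttr-37* measured 8.26, 8.00, 8.70, 9.16 and 8.67 in m577 animals without *daf-16*, against 7.32, 7.61, 6.84, 7.43 and 7.29 with it. Its difference of 1.26 ± 0.41 had an adjusted p of 0.153, and the adjusted p was 0.0252 without e1370 replicate 2 of the *daf-16* mutants, which enters through the shared estimate of spread. In e1370 *ttr-37* measured 7.76, 10.01, 7.44, 8.14 and 7.80 without *daf-16*, against 8.80, 8.07, 7.27, 7.38 and 7.085 with it. Those groups overlapped, with a difference of 0.51 ± 0.41 (limma adjusted p = 0.98). *ttr-12* differed by 1.62 ± 0.77 in m577 (adjusted p = 0.379).

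The remaining *ttr* genes had small or uneven differences. Over both alleles the 33 that did not pass lay between -0.67 (*ttr-39*) and 0.89 (*ttr-37*). *ttr-39* differed by -0.67 ± 0.29 and *ttr-47* by -0.51 ± 0.19 (limma adjusted p = 0.259 and 0.136). Among the brightest probe sets, *ttr-15*, *ttr-16*, *ttr-2* and *ttr-51* had genotype means from 12.35 to 13.34 and differences of -0.16, -0.12, -0.05 and -0.22. At the dim end, *ttr-19*, *ttr-22*, *ttr-27*, *ttr-28*, *ttr-29* and *ttr-52* had all 4 genotype means inside the control range, so that little can be said of their levels. *ttr-24* differed by 0.13 at its main probe set and by 0.06 at the other. The 3 shared probe sets differed by -0.15 (*ttr-30* and *ttr-59*), 0.38 (*ttr-49* and *ttr-40*) and 0.07 (*ttr-3* and *ttr-4*), and none passed in any comparison.

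**Figure D2:**
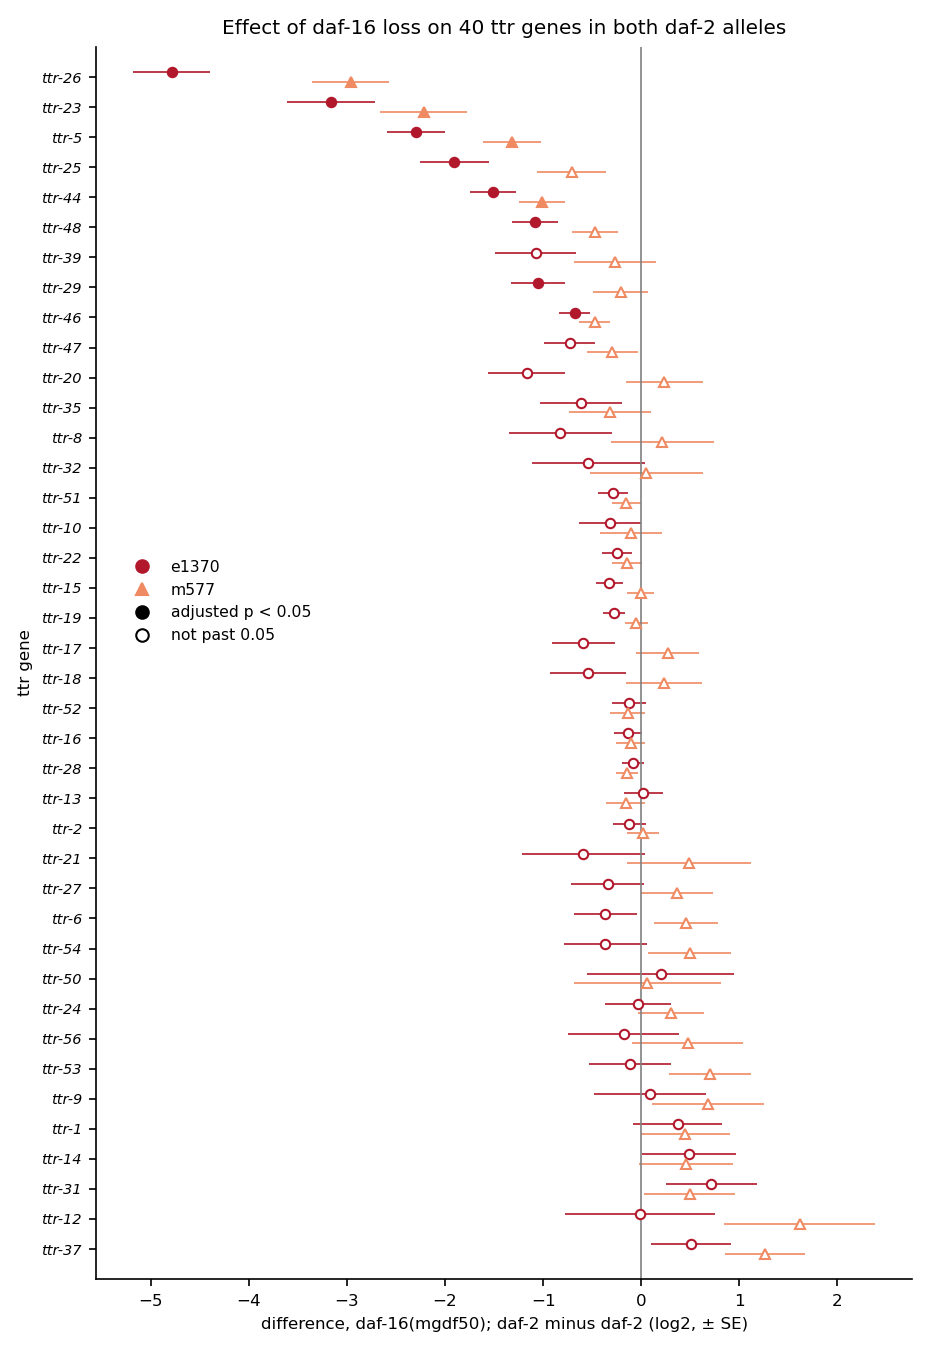
Difference in level (log2, ± SE) between animals without and with *daf-16* for each of the 40 *ttr* genes, in e1370 (circles) and m577 (triangles), ordered by the mean of both. Filled symbols passed limma's adjusted p of 0.05. Filled symbols lie left of 0 throughout, from -4.78 for *ttr-26* in e1370, and most triangles lie to the right of their circle.

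Differences were lower in e1370 than in m577 for 34 of the 40 genes, against 45% of all probe sets. By sign, 19 genes were lower without *daf-16* in both alleles, against 33% of all probe sets. Another 6 were higher in both, 14 were lower in e1370 and higher in m577, and 1 was the other way round. Members deviated together on single arrays, so this count over genes is a description and was given no test. The difference between the alleles was tested gene by gene in the same limma fit. No *ttr* gene passed, where 0.177% of all probe sets did. An unadjusted p under 0.05 was reached by 5, all of them lower in e1370, and by 5.53% of all probe sets.

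The smallest adjusted p for a difference between the alleles was that of *ttr-26*, at -1.82 ± 0.55 (limma adjusted p = 0.423), a value that background may limit as well. *ttr-20* had a difference between alleles of -1.40 ± 0.55, *ttr-25* of -1.19 ± 0.50, *ttr-5* of -0.98 ± 0.42 and *ttr-29* of -0.84 ± 0.39, with adjusted p between 0.734 and 0.884. The genes that passed in e1370 and not in m577 are thus not shown to differ between the alleles. This result changed with 1 array: without e1370 replicate 2 of the *daf-16* mutants, *ttr-26* reached -2.22 (adjusted p = 0.037) and *ttr-25* -1.61 (adjusted p = 0.0421), where 0.297% of all probe sets passed. It also changed with that array kept, under array quality weights and under the sperm and oocyte covariates, as given further below.

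With *daf-16* present, 33 of the 40 *ttr* genes were higher in e1370 than in m577 on average, against 42.2% of all probe sets. All 8 genes called above were among them. Their e1370 calls used the same arrays of e1370 with *daf-16*, so this is no separate support. None of the 40 passed limma's test, where 1.32% of all probe sets did. An unadjusted p under 0.05 was reached by 6, all higher in e1370, and by 14.7% of all probe sets in either direction. *ttr-26* was higher by 1.48 ± 0.39 (adjusted p = 0.0693), *ttr-53* by 1.41 ± 0.42 (adjusted p = 0.0991), *ttr-23* by 1.32 ± 0.45 (adjusted p = 0.146) and *ttr-20* by 1.18 ± 0.39 (adjusted p = 0.141). *ttr-5*, *ttr-23* and *ttr-26* had no overlap between the arrays of the alleles, where 1.61% of all probe sets were higher without overlap. For *ttr-26* the values set 10.31 to 11.54 in e1370 against 8.52 to 9.90 in m577.

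The calls in this comparison again changed without e1370 replicate 2 lacking *daf-16*. That array is in neither genotype compared and enters through the shared estimate of spread. Without it *ttr-20*, *ttr-23*, *ttr-25*, *ttr-26* and *ttr-53* passed (limma adjusted p between 0.0149 and 0.0431), with the same differences, and 2.68% of all probe sets passed. Leaving out e1370 replicate 3 with *daf-16* also let *ttr-53* pass (1.76, adjusted p = 0.0229). With all 20 arrays kept, genes also passed under array quality weights and under the sperm and oocyte covariates, as given further below.

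Without *daf-16*, the order of the alleles was mostly the other way. Only 6 of the 40 genes were higher in e1370 than in m577, and the median difference was -0.13, against -0.01 for all probe sets. None passed limma's test, where 0.00443% of all probe sets did. None had an unadjusted p under 0.05, against 3.44% of all probe sets. The comparison of the alleles with *daf-16* had a median of 0.33 for the *ttr* genes, against -0.05 for all probe sets.

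Position along the genome was read from the order of protein-coding RefSeq genes, without coordinates. Of the 40 genes, 16 lie on chromosome V, 9 on IV, 7 on III, 6 on X and 1 each on I and II. The 8 genes that passed were on chromosome V (*ttr-23*, *ttr-25*, *ttr-26*, *ttr-29*, *ttr-44* and *ttr-46*), III (*ttr-5*) and X (*ttr-48*). In 6 places, members lie next to each other with 0 protein-coding genes between, and these runs hold 14 members.

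Of the adjacent genes *ttr-24*, *ttr-25* and *ttr-26* on chromosome V, the first passed in no comparison and the last had the largest difference of the family. Their e1370 differences were -0.03 ± 0.34, -1.90 ± 0.35 and -4.78 ± 0.39. In m577 the same 3 genes differed by 0.30 ± 0.34, -0.71 ± 0.35 and -2.96 ± 0.39. *ttr-24* was far above the control range in all genotypes (means of 11.40 to 11.70). In the run of *ttr-27*, *ttr-28* and *ttr-29*, all near background, the e1370 differences were -0.34, -0.09 and -1.05. In the runs of *ttr-8* and *ttr-32*, *ttr-2* and *ttr-1*, *ttr-54* and *ttr-53*, and *ttr-16* and *ttr-17* no gene passed in any comparison of *daf-16*. Whether probes cross-hybridise between neighbouring copies was not tested.

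**Figure D3:**
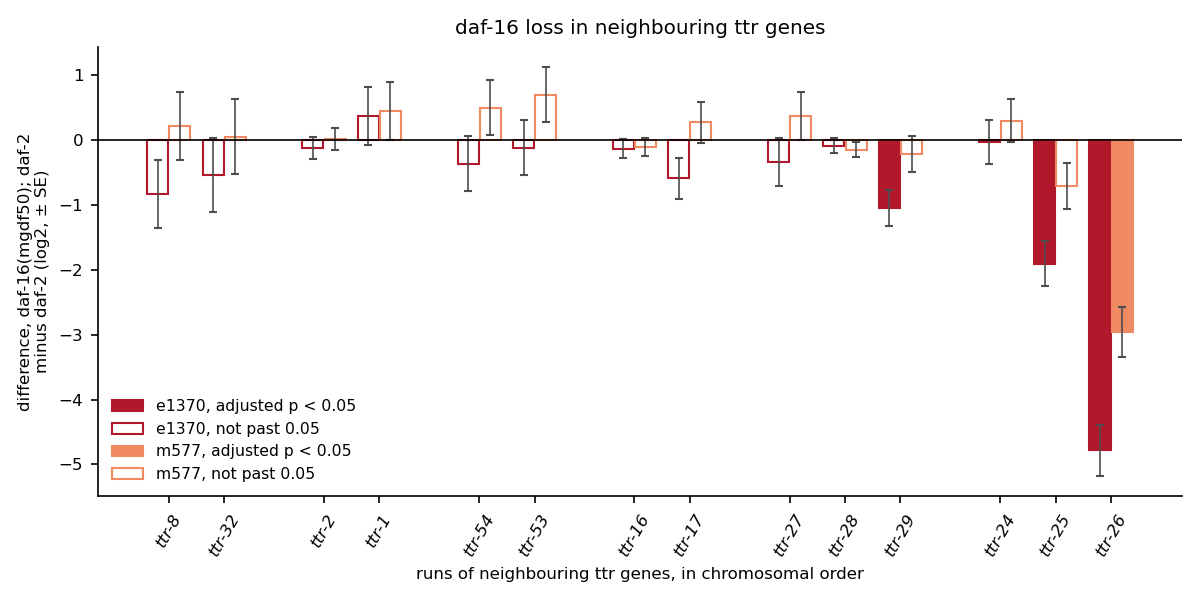
Difference in level (log2, ± SE) between animals without and with *daf-16* for the 14 *ttr* genes that lie in 6 runs of adjacent members, in e1370 (red) and m577 (orange). Filled bars passed limma's adjusted p of 0.05. The bars of *ttr-24*, *ttr-25* and *ttr-26* grow in order, to -4.78 and -2.96 at *ttr-26*, and the other runs stay between -1.05 and 0.70.

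The *ttr* genes varied more between replicates than most of the array. Their median SD within a genotype was 0.60, against 0.37 for all probe sets, and 30 of the 40 exceeded that value. *ttr-12* (1.28), *ttr-50* (1.25) and *ttr-21* (1.05) varied most, and *ttr-28* (0.16) and *ttr-19* (0.17), both at background, least.

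Much of this spread was shared between members on an array. In e1370 animals without *daf-16*, 13, 37, 1, 20 and 10 of the 40 genes were above their genotype mean on replicates 1 to 5. In e1370 animals with *daf-16* the numbers were 33, 33, 6, 8 and 10. In m577 animals they were 32, 8, 10, 24 and 18 without *daf-16* and 33, 31, 10, 18 and 12 with it. Some arrays were thus high or low for most of the family and others lay between, while 38.3% to 55.2% of all probe sets were above their genotype mean on each array. Replicate 3 was low in all 4 genotypes (1, 6, 10 and 10). Replicate 1 was high except in e1370 without *daf-16* (13), and replicate 2 except in m577 without *daf-16* (8).

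The oocyte and germ cell markers stood differently on the same arrays. Their mean level was 8.37 on e1370 replicate 2 without *daf-16* and 11.58 on replicate 3, the lowest and the highest of that genotype. In e1370 animals with *daf-16* it was 8.29 and 9.07 on the 2 arrays where the *ttr* genes were high, and 10.19, 11.30 and 10.90 on the others. In m577 animals with *daf-16* it was 8.43 and 9.04 on replicates 1 and 2, and 11.42, 9.45 and 9.56 on replicates 3 to 5. The m577 animals without *daf-16* did not follow this order: replicate 1, with 32 genes above the mean, had the highest oocyte marker level of its genotype (10.45). That array also had the largest 3'-to-5' signal gap of control transcripts (log2), 2.32.

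**Figure D4:**
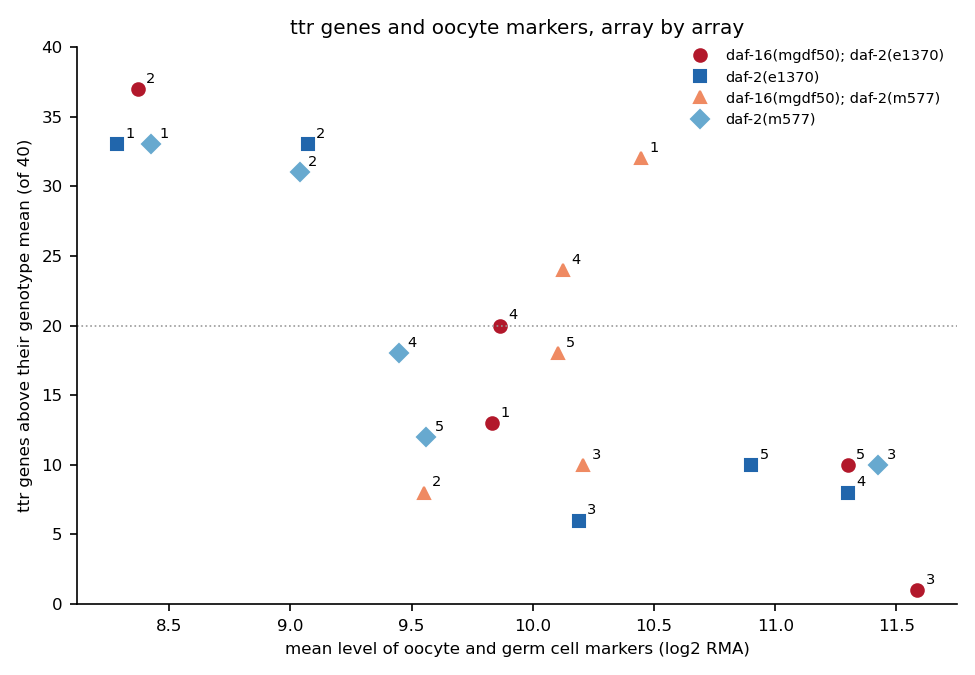
Number of the 40 *ttr* genes above the mean of their genotype (vertical axis) and mean level (log2) of 20 oocyte and germ cell markers (horizontal axis) on each of 20 arrays, labelled by replicate number. The dotted line marks 20 of 40 genes. The 5 arrays with the lowest marker means had 31 to 37 genes above the mean, and the 4 arrays with the highest had 1 to 10.

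Of 28 sperm and 20 oocyte and germ cell markers, 0 passed limma's test of *daf-16* loss over both alleles, in e1370 or in m577. At an unadjusted p under 0.05, 2 oocyte and germ cell markers were higher in e1370, and 0 markers of either list moved over both alleles or in m577. The median sperm marker difference was nevertheless 1.19 in m577 and -0.03 in e1370. The difference between the alleles had a median of -1.31 for the sperm markers and -0.59 for the *ttr* genes, and the part of germ cell content in the *ttr* differences between alleles was not tested beyond the covariates. With both marker means as covariates the lower calls over both alleles were 7, with *ttr-37* higher (1.22, limma adjusted p = 0.00231), where 6.28% of all probe sets passed. In e1370 there were then 10 lower calls and 1 higher, *ttr-20* and *ttr-39* being added below and *ttr-31* above, where 6.42% passed. In m577 *ttr-26* and *ttr-44* stayed lower and *ttr-37* was higher (adjusted p = 0.011), where 1.73% passed. *ttr-5* and *ttr-23* did not pass there (adjusted p = 0.0784 and 0.0834), with differences of -1.20 and -1.72, against -1.32 and -2.22 without the covariates. Under the same covariates 7 genes were higher in e1370 than in m577 with *daf-16* present, where 7.41% of all probe sets passed, and *ttr-20* and *ttr-26* had a difference between the alleles (adjusted p = 0.0312 and 0.0454, where 0.577% passed).

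Of the body tissue markers, those of the intestine moved with *daf-16*: over both alleles 7 of 10 were higher without it and 1, *ges-1*, was lower, where 2.69% of all probe sets were higher and 3.63% lower. In m577 alone 3 were higher and 1 lower. Their mean level was 9.92 to 10.88 and 10.22 to 10.97 in e1370 and m577 animals without *daf-16*, against 8.39 to 9.33 and 9.08 to 10.26 with it. The direction is opposite to that of the *ttr* genes that passed, and the part of tissue content in the *ttr* differences was not tested. Of 9 neuron markers 1, *rab-3*, fell (by 0.38). Of 9 hypodermis, 7 body muscle, 9 pharynx and 4 glia markers 0 passed limma's test over both alleles (at an unadjusted p under 0.05, 1 hypodermis and 1 muscle marker were lower and 1 pharynx marker higher), and all 4 glia markers lay in the control range. The 3 coelomocyte markers did not pass either, but all 3 were lower at an unadjusted p under 0.05, reached by 15.6% of all probe sets. Their mean level was 6.95 to 7.58 and 6.39 to 7.29 in e1370 and m577 animals without *daf-16*, against 7.33 to 7.81 and 7.31 to 7.67 with it.

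The most variable members, *ttr-50* and *ttr-12*, were picked out after their values were seen. *ttr-50* measured 5.80, 6.35, 7.73, 6.16 and 10.04 in e1370 animals without *daf-16*, against 6.05, 6.05, 5.98, 9.62 and 7.38 with it. Without *daf-16*, m577 animals had levels of 6.81, 6.00, 6.28, 6.32 and 6.19, against 5.80, 5.90, 7.68, 5.90 and 6.02 with it. It was thus near the control range on most arrays and far above it on a few, in genotypes with and without *daf-16*. The 3 arrays with the lowest sperm marker means had *ttr-50* at 10.04 (e1370 replicate 5 without *daf-16*, sperm mean 8.47), 9.62 (e1370 replicate 4 with *daf-16*, 9.43) and 7.68 (m577 replicate 3 with *daf-16*, 8.26). Similar *ttr-50* levels were also read at higher sperm means: 7.73 on e1370 replicate 3 without *daf-16* (sperm mean 10.62) and 7.38 on e1370 replicate 5 with it (11.57). The link to the sperm markers was noticed in these values and was given no test.

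*ttr-12* was low on the same 3 arrays. It measured 8.70, 10.55, 6.47, 8.39 and 5.66 in e1370 animals without *daf-16*, against 8.40, 9.85, 7.35, 5.91 and 8.33 with it. In m577 animals without *daf-16* its levels were 9.09, 8.34, 9.16, 8.99 and 8.01, against 7.42, 6.95, 6.06, 7.26 and 7.82 with it. On the 3 arrays with the lowest sperm means it read 5.66, 5.91 and 6.06, inside the control range, and on no other array was it that low. The oocyte marker means of those 3 arrays were 11.30, 11.30 and 11.42. Neither *ttr-50* nor *ttr-12* passed limma's test of *daf-16* loss in either allele.

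**Figure D5:**
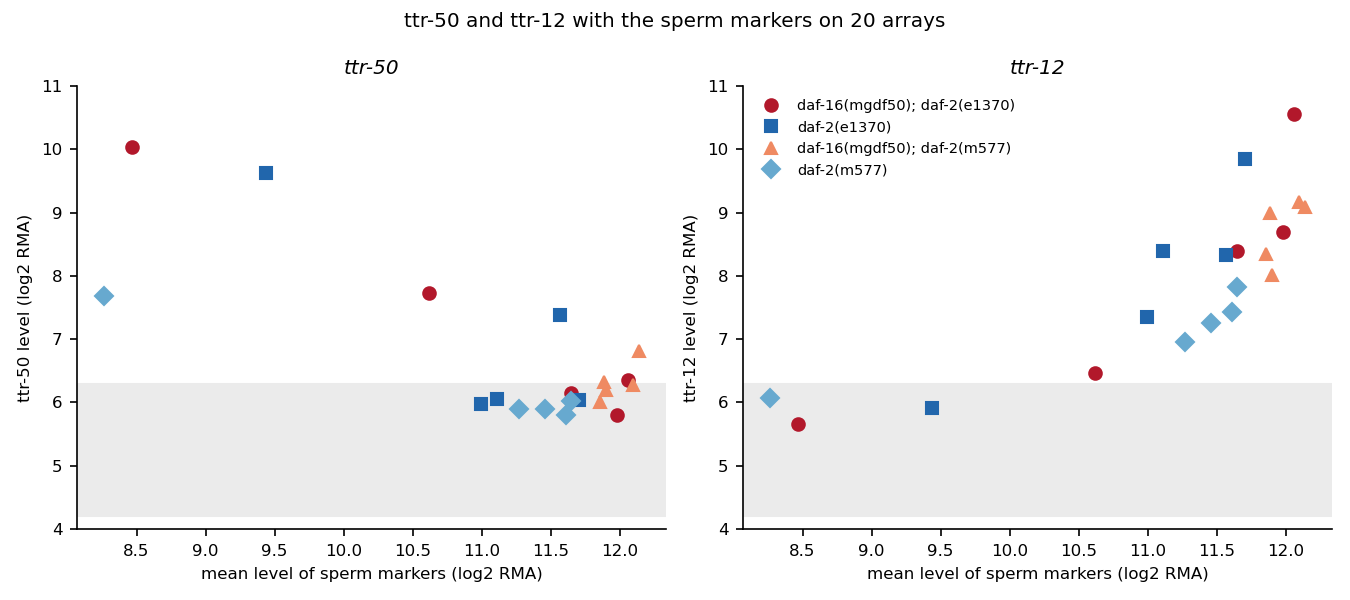
Levels (log2) of *ttr-50* and *ttr-12* against the mean level (log2) of 28 sperm marker probe sets on 20 arrays, with symbols for the 4 genotypes and the control range in grey. The 3 arrays with the lowest sperm means had *ttr-50* between 7.68 and 10.04 and *ttr-12* between 5.66 and 6.06, and another array of higher sperm mean had *ttr-50* at 7.73.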

How the data were processed

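Expression was measured in 20 whole-animal RNA samples, 1 array each. Per the labels' protocols, the authors read scanner images with Microarray Suite (MAS) 5.0. All arrays then went through 1 run of the Robust Multi-chip Average (RMA), using R's Affymetrix package at version 1.4.14. The resulting deposited values are taken here as log2 intensity, a scale inferred from their range. RMA as usually run makes the distributions of arrays alike, so a change in total RNA would be missed. Neither scanner images nor detection calls were analysed here, and signal over background was judged from the 15 Bacillus control probe sets.

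Of 22625 probe sets, 77 Affymetrix controls were left out and 22548 were tested. Genes were named from the array annotation, and only from probe sets with 1 symbol (887 had several and 895 none). All 40 members matched a RefSeq gene of assembly WBcel235 by gene identifier, and that table was used only for names and gene order. For each gene, the brightest probe set by mean level was used. The members, marker lists and engulfment list were chosen with earlier results of these data known. Every *ttr* gene could be named. Values on every array were given for genes past the threshold and for *ttr-52*, and up to 4 genes of each other list were named. *ttr-12*, *ttr-37* and *ttr-50* were given in full after their values were seen, as were single genes named outside this rule.

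Groups are the labelled genotypes. In limma 3.58.1 (R 4.3.3), lmFit, contrasts.fit and eBayes were run on the 20 arrays together, with a mean for each genotype and no covariates. This gave 6 comparisons, all 2-sided, with Benjamini-Hochberg adjustment over 22548 probe sets within each, and every adjusted p-value is from limma at a threshold of 0.05. The fit was tested on simulated data with known changes and independent noise for each probe set. Genes that deviate together on an array were not imitated, so this checks the calculation only. Precision is limited by 5 arrays per genotype. Replicate numbers paired the arrays only in part, so the main fit has no replicate block, and 0 array pairs held identical values. The 15 other settings, and leaving out each array, are given with the closing values. No promoter or protein sequences were used here. Figures were drawn with matplotlib 3.10.9.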

Additional observations from a re-analysis of the deposited data

Results flagged for a closer look

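Among the 12 *ttr* genes given array by array, 48 groups of 5 arrays were searched for a highest or lowest value set far apart from the others, by Dixon's test at its critical value of 0.71. It found 7, and chance gives about 1 in 20 groups. *ttr-25* (11.57), *ttr-26* (7.71) and *ttr-37* (10.01) were set apart upward on e1370 replicate 2 without *daf-16*, the array on which 37 of 40 *ttr* genes were above their genotype mean. *ttr-23* (8.28) was set apart upward on m577 replicate 1 without *daf-16*, where 32 of 40 were. *ttr-50* (7.68) was set apart upward on m577 replicate 3 with *daf-16*, the array with the lowest sperm marker mean. *ttr-46* (12.49) was set apart downward on e1370 replicate 2 with *daf-16*, and *ttr-52* (5.61) upward on m577 replicate 5 without *daf-16*, inside the control range.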

How the results depend on the processing

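The 19 called differences of *ttr* genes were recomputed under 15 other settings and without each of 20 arrays, giving 657 values, of which 613 kept their call, 44 lost it and 0 changed sign. Centring on medians, cyclic loess, leaving out dim probe sets, a trend with robust settings and 1 value per gene moved no count of calls by over 1.5 times. Current RefSeq symbols gave the same 40 members. Fitting 2 genotypes could not be applied to the comparisons that use 4. With array quality weights the counts were 14 over both alleles (2 higher, 12 lower, where 15% of all probe sets passed), 13 in m577 (4 higher, 29.5%), 3 for the difference between alleles (4.94%) and 6 between alleles with *daf-16* (11.6%). With 2 genotypes fitted they were 4 in e1370 and 1 between alleles with *daf-16*, and *ttr-12* and *ttr-37* passed as higher in m577. Against a 1.2-fold change 2 remained in m577, and with the 3' minus 5' covariate 1. Sperm and oocyte covariates gave 2 for the difference between alleles and 7 between alleles with *daf-16*. Leaving out the 3 arrays of lowest sperm level and e1370 replicate 2 without *daf-16*, a setting added after the data were seen, gave 1 and 3. Without 1 array the counts ranged from 7 to 10 over both alleles, 6 to 11 in e1370, 2 to 5 in m577, 0 to 2 for the difference between alleles, 0 to 5 between alleles with *daf-16* and 0 to 0 without it. The share of all probe sets that passed also moved with the setting. Where it is not printed beside a count, a shift of that count cannot be read as particular to the *ttr* genes. The cause of these shifts was not tested.

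Replicate numbers paired the arrays only in part. With title numbers, pairs of same-numbered arrays correlated between -0.54 and 0.82 in their deviations from the genotype means, with a median of 0.08. Of these 30 pairs 14 correlated over 0.1, and 5 of 20 arrays correlated best with their own number. With the numbers in the alternative names it was 9 of 20 pairs and 4 of 20 arrays. A shared batch behind some replicate numbers was not tested. With a replicate block the counts over both alleles, in e1370 and in m577 were 8, 8 and 4 by title number, and 8, 8 and 1 by alternative name. These counts too are given without the share of all probe sets and are not read as particular to the *ttr* genes.

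Differences of genes inside the control range, that of *ttr-29* included, are poorly measured. The promoter and protein descriptions planned were not run, as no such sequences were given.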
